A study of Mus musculus with 8 samples.

Results

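The liver answers infection and injury by changing which proteins it secretes into blood, and the genes described here are 10 that take part in that response. They are the serum amyloid A genes *Saa1*, *Saa2*, *Saa3* and *Saa4*, the orosomucoid genes *Orm1* and *Orm2*, haptoglobin (*Hp*), lipocalin-2 (*Lcn2*), and the regulators *Cebpd* and *Socs3*. They were chosen by gene symbol from a list of known acute-phase and interleukin-6 (IL-6) response genes, and all 10 were found once among the 16650 genes of the table. Earlier results of these data were known when the choice was made.

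IL-6 and related cytokines bind receptors that share the signaling chain gp130, which activates JAK kinases and the transcription factor STAT3. STAT3, C/EBP factors and NF-κB, the last of these downstream of IL-1 and TNF, together raise transcription of the acute-phase genes in hepatocytes. SOCS3, itself induced by STAT3, binds gp130 and JAK and shuts the signal down.

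The study asked how loss of Mfsd2a, a transporter of lysophosphatidylcholine, affects the liver of mice on a steatohepatitis (NASH) diet. Liver RNA was sequenced from 4 2afl/fl mice, which carry floxed *Mfsd2a* alleles, and from 4 L2aKO mice, in which the same alleles are combined with an albumin-promoter Cre transgene active in hepatocytes. All 8 mice were 10 weeks old, had spent 2 weeks on NASH diet and fructose water, and were killed at zeitgeber time 4. The study used males unless it stated otherwise, and mice were perfused with saline before the liver was taken. Liver tissue was homogenized for RNA, so that the RNA is that of whole liver with its non-parenchymal cells.

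The values are reads per gene, normalized by the authors with 1 size factor per library, and carry no unit. Depth, estimated from the spacing of low values, was 27.5 to 30.2M reads in 2afl/fl and 28.3 to 37.2M in L2aKO. By its mean correlation with the others over genes with a mean of at least 10, 0.986 to 0.988, no library stood apart. *Mfsd2a* did not fall with the label. It stood at 467, 1569, 299.6 and 513 in 2afl/fl and at 915, 721, 1422 and 1974 in L2aKO (log2 fold change 1.01, SE 0.59, exact permutation p = 0.171), so the second group is called livers labelled L2aKO, and each direction below rests on that label. Which exons the *Mfsd2a* value covers is not given in the sources used here. The paper reports that Mfsd2a protein was absent from liver lysates of L2aKO mice, without stating whether these livers were among them. In bulk tissue, fewer cells of a type and less RNA per cell cannot be told apart.

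A gene was called when its unadjusted p in limma was under 0.05 and its log2 fold change was at least 0.32 up or down, the limits the study set on p and fold. Fold changes are log2 differences of value plus 1, livers labelled L2aKO over 2afl/fl. Of all 16650 genes 349 were called (2.1%), 219 of them higher (1.32%) and 130 lower (0.781%). Under quantile normalization 167 were called higher and 169 lower, while with equal library totals 228 were called higher and 118 lower. The excess of higher calls was thus absent under quantile normalization and kept with equal totals. As deposited, the values gave no adjusted p under 0.05, while 581 genes had an unadjusted p under 0.05. Of the 10 acute-phase genes 1, *Cebpd*, was called higher and 0 lower. The genotypes did not overlap for 1 of the 10, again *Cebpd*, against 375 of all genes (2.25%). Adjusted over all genes, p by limma was 0.9997 for each of the 10. Their median log2 fold change was 0.13, with 6 above and 4 below 0, and that of all genes was 0.0003.

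**Figure D1:**
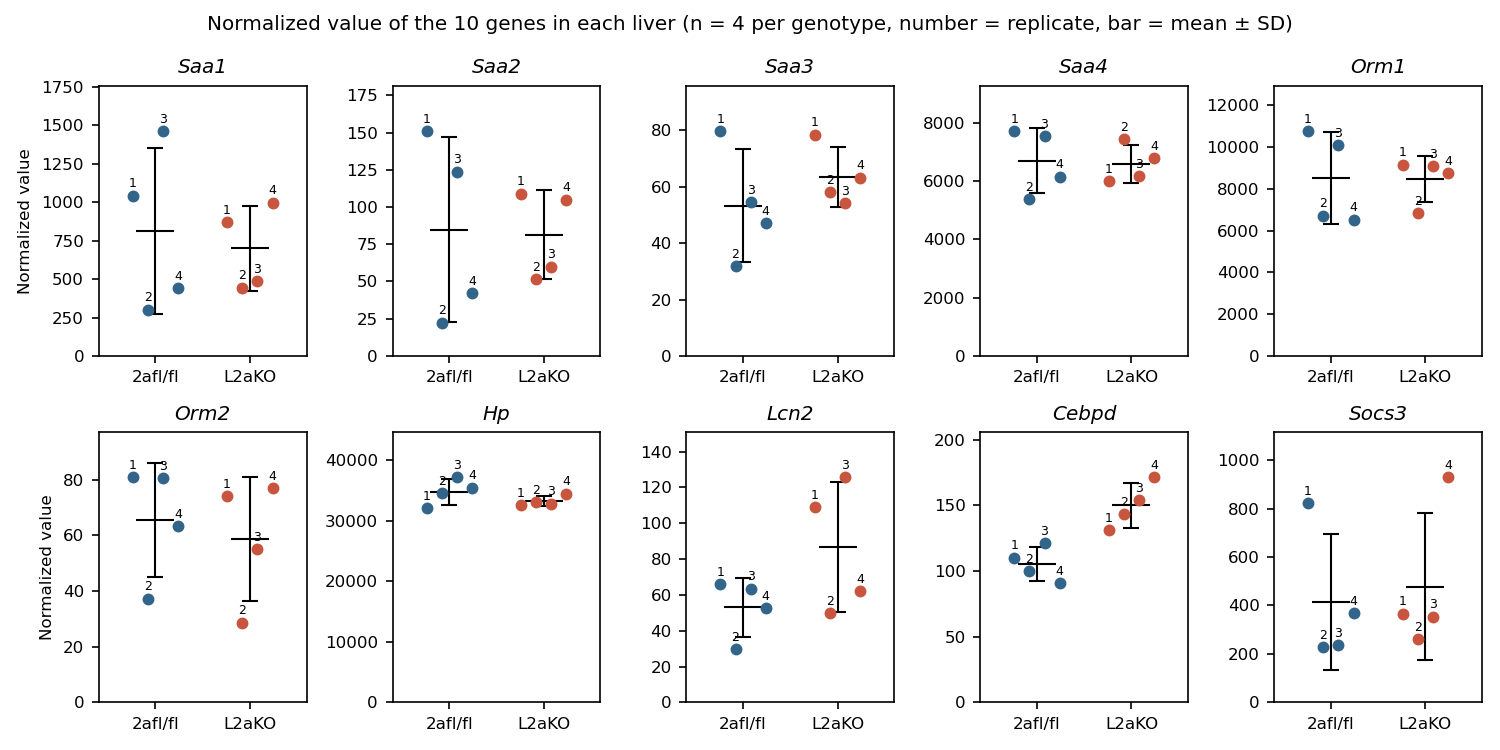
Normalized value (vertical axis, no unit, linear from 0) of each of the 10 genes in each of 4 2afl/fl livers (blue) and 4 livers labelled L2aKO (red). The number is the replicate and the bar the mean ± SD. Only *Cebpd* has separate genotypes (91.0 to 121 against 131 to 171), and *Saa1*, *Saa2* and *Socs3* spread widely within a genotype.

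*Saa1* and *Saa2* encode the acute-phase serum amyloid A proteins, small apolipoproteins that hepatocytes release onto high-density lipoprotein. *Saa1* stood at 1042, 300.2, 1464 and 441 in 2afl/fl and at 872, 444, 486 and 997 in the livers labelled L2aKO. The highest and the lowest of the 8 values are both 2afl/fl, and the other genotype lies between them. The genotype means were 812 ± 541 and 700 ± 276 (SD, n = 4 each). Their log2 fold change of -0.03 (SE 0.59) had a 95% interval from -1.47 to 1.41. No difference was therefore resolved, and the interval covers folds from 0.361 to 2.67. An exact two-sided permutation test over the 70 ways of dividing the livers gave p = 0.943.

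*Saa2* was 151, 22.4, 124 and 42.2 in 2afl/fl, and 109, 51.6, 59.9 and 105 in the livers labelled L2aKO. The same 2 control livers, replicates 1 and 3, are high and the same 2, replicates 2 and 4, are low as for *Saa1*. The log2 fold change was 0.24 (SE 0.66, 95% interval -1.32 to 1.80), and the exact permutation p was 0.771. Over the 8 livers *Saa2* ranged 6.76-fold and *Saa1* 4.88-fold, the widest ranges of the 10 genes.

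*Saa1* and *Saa2* lie head to head on mm10 at chr7:46740497-46742980 (minus strand) and chr7:46751833-46754314 (plus strand), so that their promoters face each other across the space between them. The 250 bases before each start are shown because the transcripts of both genes also varied together, as given further below. The sequences are those of RefSeq (GRCm38.p6), 5′ to 3′ on the strand of the gene, at chr7:46742981-46743230 for *Saa1* and chr7:46751583-46751832 for *Saa2*. Capitals mark matches to the C/EBP motif TTNNGNAA on either strand, where N is any base.
Saa1 promoter: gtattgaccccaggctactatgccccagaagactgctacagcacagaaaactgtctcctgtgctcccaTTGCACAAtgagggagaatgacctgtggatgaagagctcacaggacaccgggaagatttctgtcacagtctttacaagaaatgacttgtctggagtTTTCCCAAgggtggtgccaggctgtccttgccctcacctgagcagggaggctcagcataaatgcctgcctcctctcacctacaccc
Saa2 promoter: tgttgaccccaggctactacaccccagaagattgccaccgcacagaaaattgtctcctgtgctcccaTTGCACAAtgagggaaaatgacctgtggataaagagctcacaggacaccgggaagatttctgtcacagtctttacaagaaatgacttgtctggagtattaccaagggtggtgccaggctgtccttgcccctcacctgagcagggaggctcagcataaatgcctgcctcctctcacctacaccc
The pair is 94.8% identical, with 238 identical bases, 11 mismatches and 2 gaps. Both hold the match TTGCACAA, at -182 to -175 in *Saa1* and -183 to -176 in *Saa2*, counted back from the start used here. The RefSeq span of *Saa1* reaches upstream to 46743181, so part of its window lies inside that longer span. *Saa1* holds a second match, TTTCCCAA at -86 to -79, which the letters of *Saa2* do not give.

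The transcripts are also alike. Of the 50-base words of the *Saa1* transcript 13.2% occur in that of *Saa2*, and how reads that fit both were shared out is not given in the sources used here, so the split between these genes is uncertain. Their sum was 897 ± 596 in 2afl/fl and 781 ± 305 in the livers labelled L2aKO (SD, n = 4 each). The ratio of *Saa1* to *Saa2* ran from 6.90 to 13.4, and both ends of that range belong to 2afl/fl livers.

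*Saa3* is the serum amyloid A gene that macrophages and fat cells also transcribe on stimulation. Its values were 79.8, 31.9, 54.5 and 47.0 in 2afl/fl and 78.5, 58.1, 54.2 and 63.2 in the livers labelled L2aKO. Replicate 2 of 2afl/fl is the lowest liver, while the highest 2afl/fl liver and the highest of the other genotype differ little. The log2 fold change was 0.31 (SE 0.25, 95% interval -0.23 to 0.85), and the exact permutation p was 0.400. Without 2afl/fl replicate 1 the gene met the criterion, at 0.52, while without 2afl/fl replicate 2 its log2 fold change was 0.093 and without replicate 1 of the livers labelled L2aKO 0.20.

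*Saa4* encodes the constitutive serum amyloid A of high-density lipoprotein, which changes little in acute inflammation. The livers gave 7719, 5388, 7539 and 6148 in 2afl/fl and 5994, 7440, 6177 and 6785 in the other group. Replicates 1 and 3 again lie above 2 and 4 in 2afl/fl, but the range over all 8 livers was only 1.43-fold. With a log2 fold change of -0.01 (SE 0.12), the 95% interval from -0.27 to 0.25 lies inside the fold limit in both directions. The exact permutation p was 0.914.

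Stretches of 60 bases from the RefSeq promoters of these genes are shown to set their motif matches beside those of *Saa1* and *Saa2*. *Saa3* (mm10 chr7:46711998-46715676, minus strand) and *Saa4* (chr7:46727992-46732603, minus strand) complete a cluster of 4 genes over 42.3 kb. The stretches lie at chr7:46715757-46715816 and chr7:46732624-46732683 of GRCm38.p6, on the minus strand, with C/EBP matches in capitals.
Saa3 promoter: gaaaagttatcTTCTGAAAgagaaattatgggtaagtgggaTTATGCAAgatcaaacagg
Saa4 promoter: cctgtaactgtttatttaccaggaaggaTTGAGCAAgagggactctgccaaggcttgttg
In its 250 bases *Saa3* holds 4 C/EBP matches and *Saa4* holds 2. The RefSeq span of *Saa3* reaches upstream to 46719615, so its whole window lies inside that longer span. Such matches are common, since 36.8% of 32851 RefSeq windows of 250 bases before a start hold at least 1. Neither the STAT motif TTCNNNGAA (7.02% of windows) nor the NF-κB motif, GGGA and TTCC with 2 bases of any kind between them (1.21%), was matched in the 4 *Saa* windows.

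Genes beside the *Saa* cluster gave values for comparison. *Saal1*, 1.3 kb before it, differed by -0.09 on the log2 scale (SE 0.11), and *Hps5*, 6.2 kb after it, by -0.01 (SE 0.06). The next genes out, *Sergef* (-0.15) and *Gtf2h1* (0.01), were not called either. *Hps5* ranged only from 681 to 750 over the 8 livers, so the wide spread of *Saa1* and *Saa2* was not seen in this neighbour.

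*Orm1* and *Orm2* encode orosomucoid, also named α1-acid glycoprotein, a plasma protein that binds basic drugs and steroids. *Orm1* stood at 10771, 6717, 10087 and 6520 in 2afl/fl and at 9156, 6844, 9094 and 8764 in the livers labelled L2aKO. The control livers split into a higher and a lower pair, replicates 1 and 3 against 2 and 4, and among the other livers replicate 2 is apart from the rest. The means, 8523 ± 2219 and 8465 ± 1094 (SD, n = 4 each), differed by a log2 fold change of 0.02 (SE 0.19, 95% interval -0.43 to 0.47). The exact permutation p was 0.943.

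*Orm2* had values of 80.8, 37.3, 80.6 and 63.3 in 2afl/fl, and 74.1, 28.7, 55.2 and 77.1 in the livers labelled L2aKO. Replicate 2 is the lowest liver of each genotype, and the groups overlap almost fully. The log2 fold change was -0.19 (SE 0.34, 95% interval -0.95 to 0.58), with an exact permutation p of 0.571. *Orm1* and *Orm2* share 20.4% of their 50-base words, so their values are uncertain where reads fit both. *Orm3*, which lies inside the same cluster, was between 0.819 and 20.4 in all livers, and the 3 genes summed to 8600 ± 2242 and 8534 ± 1119 (SD, n = 4 each).

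The *Orm* genes lie on mm10 at chr4:63344556-63348163 and chr4:63362449-63365877, both on the plus strand. The stretch of the *Orm2* promoter at chr4:63362309-63362368 (GRCm38.p6, RefSeq, plus strand) is shown because it holds 2 C/EBP matches, in capitals, close to each other.
Orm2 promoter: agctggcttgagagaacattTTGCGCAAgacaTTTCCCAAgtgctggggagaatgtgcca
The first match, TTGCGCAA at -120 to -113, reads as the motif on both strands, and the second, TTTCCCAA at -108 to -101, has the letters of the second match of *Saa1*.

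Beside the *Orm* cluster, *Col27a1*, which encodes a fibrillar collagen chain and ends 9.6 kb before *Orm1*, was called lower. Its values were 3506, 2926, 3506 and 2183 in 2afl/fl and 1647, 2903, 2053 and 1606 in the livers labelled L2aKO (log2 fold change -0.58, SE 0.24). The groups overlap through replicate 4 of 2afl/fl and replicate 2 of the other. *Kif12*, a kinesin gene 172.4 kb away, was also called lower (-0.76, SE 0.30), while *Akna* (0.21, SE 0.14) and *Whrn* (0.02, SE 0.17) on the other side were not called.

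*Hp* encodes haptoglobin, the plasma protein that binds free hemoglobin. It lies at chr8:109575128-109579172 of mm10 on the minus strand. The livers gave 31995, 34501, 37101 and 35434 in 2afl/fl and 32531, 33034, 32790 and 34430 in the livers labelled L2aKO. Replicates 2, 3 and 4 of 2afl/fl lie above all 4 of the other livers, but replicate 1 is the lowest of all. The log2 fold change was -0.06 (SE 0.07), and its 95% interval, -0.21 to 0.08, lies inside the fold limit in both directions. The exact permutation p was 0.257. *Hp* was also the steadiest of the 10 genes, with a range of 1.16-fold over the 8 livers.

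*Lcn2* encodes lipocalin-2, which withholds iron from bacteria by binding their siderophores and which hepatocytes and neutrophils both make. Its values were 65.9, 29.8, 63.6 and 52.7 in 2afl/fl, and 109, 49.9, 126 and 62.2 in the livers labelled L2aKO. Replicates 1 and 3 of the labelled livers lie above every control, and replicates 2 and 4 lie among the controls. Mean values were 53.0 ± 16.5 in 2afl/fl and 86.7 ± 36.3 in the other group (SD, n = 4 each). At 0.66 (SE 0.34), its log2 fold change was the highest of the 10 but did not pass, with an unadjusted p of 0.080 by limma and a 95% interval from -0.10 to 1.42. An exact permutation test gave p = 0.257. Without replicate 2 of the livers labelled L2aKO, the gene met the criterion at a log2 fold change of 0.89, while it was 0.41 without 2afl/fl replicate 2 and 0.45 without replicate 3 of the livers labelled L2aKO.

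Neutrophil markers were set beside *Lcn2*. Of 13 listed, 10 were measured and 0 were called, 6 with a log2 fold change above and 4 below 0, and their summed value was 593 to 665 in 2afl/fl and 591 to 673 in the livers labelled L2aKO. Most of that sum was *Cxcr2* (459 to 556). The granule genes *Camp* (0.929 to 4.25) and *Ltf* (0 to 4.25) were near 0 in every liver, and *Ly6g*, *Ngp* and *Mpo* were not analysed here. *Mmp8* had the highest log2 fold change of the list (1.04, SE 0.60). Its values were also near 0, at 0 to 1.06 in 2afl/fl and 0.819 to 4.36 in the other livers. *Elane* had the lowest (-0.54, SE 0.45). *S100a9*, a calprotectin subunit, stood at 1.14 to 3.19 in 2afl/fl and 3.28 to 5.71 in the other livers, also near 0. The other subunit, *S100a8*, overlapped, at 2.13 to 16.3 and 4.76 to 9.29. *Csf3r*, the receptor for granulocyte colony-stimulating factor, stood at 73.2 to 83.5 and 86.8 to 88.2. *S100a9* and *Csf3r* were the 2 of 10 without overlap, beside 2.25% of all genes, and neither was called. Of the 10 markers 7 had a mean under 10. The part of neutrophils in the *Lcn2* values was not tested.

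The 60 bases of the *Lcn2* promoter that hold its only C/EBP match are shown for comparison with the *Saa* windows. They lie at chr2:32387920-32387979 (GRCm38.p6, RefSeq, minus strand), upstream of the gene at chr2:32384637-32387739, with the match TTGCTCAA at -216 to -209 in capitals.
Lcn2 promoter: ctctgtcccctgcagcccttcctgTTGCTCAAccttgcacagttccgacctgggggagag

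*Cebpd* encodes C/EBPδ, a transcription factor that is itself induced in the acute phase and binds the promoters of acute-phase genes. Its values were 110, 99.8, 121 and 91.0 in 2afl/fl and 131, 143, 154 and 171 in the livers labelled L2aKO. Every labelled liver lies above every control liver. Mean values were 105.5 ± 13.0 in 2afl/fl and 149.9 ± 17.0 in the other group (SD, n = 4 each), a fold of 1.42. The log2 fold change was 0.50 (SE 0.13) with a 95% interval from 0.21 to 0.79, that is from 1.16-fold to 1.73-fold, and an unadjusted p of 0.0025 by limma. The exact permutation p of 0.0286 is the smallest that 4 against 4 livers can give. Leaving out each library in turn kept the call in 8 of 8 fits, and adjusted over all genes p was 0.9997.

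Reads of *Cebpd* (mm10 chr16:15887286-15889545, plus strand) can include some of *Spidr*, a DNA repair gene on the opposite strand whose end overlaps it by 321 bases in the table. Whether reads were counted by strand is not given in the sources used here. *Spidr* was 122 to 160 in 2afl/fl and 128 to 151 in the livers labelled L2aKO, with a log2 fold change of -0.05 (SE 0.12). *Cebpd* is also transcribed by macrophages. All 10 Kupffer cell markers had log2 fold changes above 0, with 0 called, and their sums were 7008 to 8946 in 2afl/fl and 8143 to 10114 in the other livers. Of 12 recruited macrophage markers all lay above 0 and 1, *C5ar1*, was called (7.45 to 11.7 against 14.7 to 27.3), with sums of 2682 to 4961 and 2730 to 5429. Endothelial marker sums nearly touched, at 10413 to 12023 and 12039 to 13274, and 0 of the 8 single markers were without overlap. Of these 8, 7 lay above 0 and 0 were called. Of 9 stellate cell markers 7 lay above 0 and 1, *Col1a1*, was called higher (0.37, SE 0.14), with overlap. Over all genes 50.1% lay above 0 and 2.1% were called. None of the macrophage markers was at 0 in all livers. The part of these cell types in the *Cebpd* difference was not tested.

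**Figure D2:**
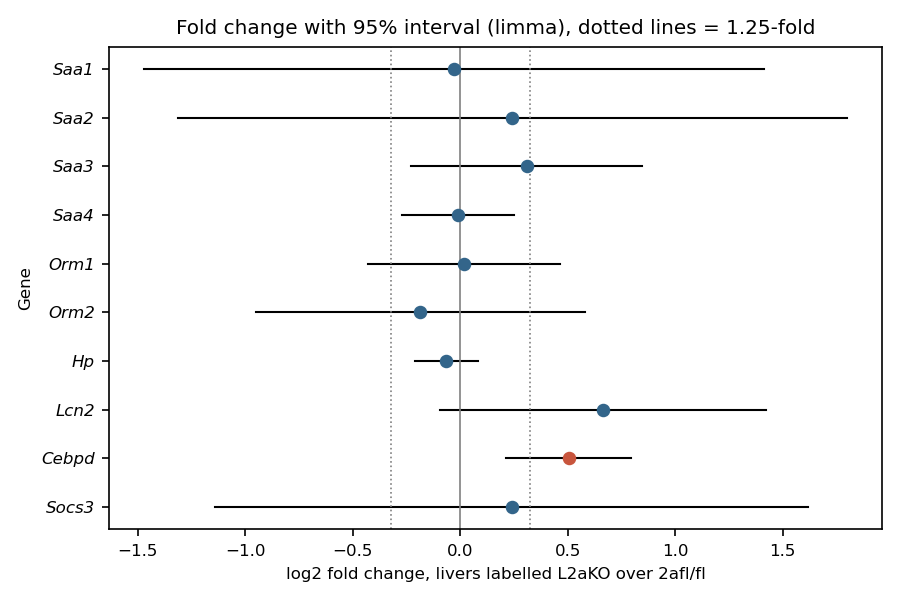
Log2 fold change (horizontal axis, livers labelled L2aKO over 2afl/fl) of the 10 genes with the 95% interval of the limma fit, and dotted lines at the fold limit (0.32 up or down). *Cebpd* (red) is the only gene whose interval, 0.21 to 0.79, leaves out 0, while those of *Hp* and *Saa4* lie within the dotted lines.

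*Socs3* encodes the inhibitor that ends signaling through gp130. It stood at 823, 227, 235 and 368 in 2afl/fl and at 366, 261, 354 and 928 in the livers labelled L2aKO. One liver of each genotype, replicate 1 of 2afl/fl and replicate 4 of the other, stands far above the remaining livers. The genotype means were 413 ± 281 and 477 ± 304 (SD, n = 4 each). With a log2 fold change of 0.24 (SE 0.57, 95% interval -1.14 to 1.62), the exact permutation p was 0.571.

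*Socs3*, at chr11:117966087-117969366 of mm10 on the minus strand, was the only one of 7 promoters matched in RefSeq that held a STAT motif. The 60 bases around it, chr11:117969487-117969546 (GRCm38.p6), are shown for that reason, with the match TTCTTAGAA at -154 to -146 in capitals.
Socs3 promoter: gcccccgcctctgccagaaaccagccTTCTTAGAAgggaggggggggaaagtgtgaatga
The RefSeq span of *Socs3* reaches upstream to 117970336, so the stretch shown lies inside that longer span. *Orm1*, *Hp* and *Cebpd* were not matched in the promoter table used here.

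The 2 livers high in *Socs3* were also the highest in *Cish*, a SOCS family gene known as a target of growth hormone and STAT5. *Cish* stood at 235, 50.03, 38.6 and 43.2 in 2afl/fl and at 76.3, 70.4, 98.0 and 1395 in the livers labelled L2aKO. This pair was picked out after the values had been seen, as 1 of 3, so the p-values below cannot serve as a test of it. Their adjustment covers those 3 pairs only, not the other genes that could have been picked. Pearson's r over the 8 livers was 0.886 (exact permutation p = 0.00253, adjusted 0.00759) and Spearman's rho was 0.690 (exact permutation p = 0.0694, adjusted 0.208). Without the 2 livers farthest from the median of *Socs3*, r was 0.472, so the relation rests on those livers. For *Socs2* against *Socs3* r was 0.353 (exact permutation p = 0.386) with rho 0.405 (p = 0.327), and for *Bcl6* r was -0.659 (exact permutation p = 0.0608) with rho -0.357 (p = 0.389). *Bcl6* was 802 in the liver with the highest *Socs3* and between 2851 and 4095 in the others.

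Levels were compared between genes after dividing by transcript length from GENCODE M21, with the span in the table in place of it for *Cebpd*. Per kilobase, *Hp* was the most abundant transcript at 25840 in 2afl/fl (23790 to 27580 over all 8 livers), followed by *Orm1* at 11000 (8412 to 13900), *Saa4* at 3199 (2573 to 3686) and *Saa1* at 1333 (493 to 2404). No liver of one of these 4 genes overlaps the range of the next. Below them came *Socs3* at 162 (88.8 to 364), *Saa2* at 140 (36.9 to 249), *Saa3* at 96.0 (57.5 to 144), *Orm2* at 84.5 (37.0 to 104), *Lcn2* at 57.9 (32.6 to 137) and *Cebpd* at 46.7 (40.3 to 75.7), each overlapping its neighbours in the order. The 3 most abundant genes also had the narrowest ranges over the 8 livers, 1.16-fold, 1.65-fold and 1.43-fold.

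Spread between mice of one genotype was large for most of these genes. Of the 10, 9 had a within-genotype SD on the log2 scale above 0.153, the median of the 14212 genes with a mean of at least 10. *Saa2* had a larger SD than 99.1% of those genes, *Saa1* than 98.5% and *Socs3* than 98.3%. *Orm2* (95.2%), *Lcn2* (94.9%), *Saa3* (88.0%) and *Orm1* (78.9%) followed, with *Saa4* (62.9%) and *Cebpd* (55.0%) near the middle and *Hp* (10.5%) low.

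Several of the genes were high or low in the same livers. Replicate 2 of 2afl/fl was the lowest of all 8 livers for *Saa1*, *Saa2*, *Saa3*, *Saa4*, *Lcn2* and *Socs3*. Among 2afl/fl livers, replicates 1 and 3 both lay above replicates 2 and 4 for 8 of the 10 genes, with *Hp* and *Socs3* as the exceptions. The livers labelled L2aKO did not share one order. Among them replicate 2 was the lowest for *Saa1*, *Saa2*, *Orm1*, *Orm2*, *Lcn2* and *Socs3* and the highest for *Saa4*. The mean z score of the 10 genes was 0.62, -1.24, 0.57 and -0.49 in 2afl/fl, and 0.31, -0.42, 0.04 and 0.62 in the livers labelled L2aKO. The labelled livers thus lay inside the range of the 2afl/fl livers.

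**Figure D3:**
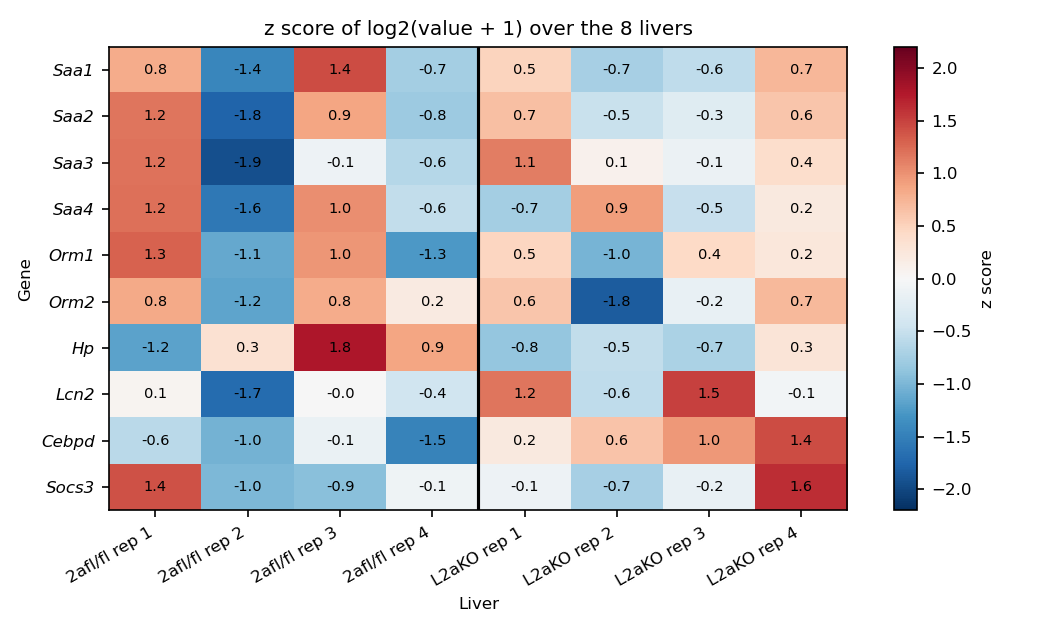
Each cell gives the z score of log2(value + 1) of a gene (rows) in a liver (columns), over the 8 livers, from blue (low) to red (high), with 2afl/fl to the left of the black line. Replicate 2 of 2afl/fl is low in all genes but *Hp*, and only in *Cebpd* are all 4 livers on the right higher than all 4 on the left.

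Correlations were computed for all 45 pairs of the 10 genes over the 8 livers, and 2 pairs had an adjusted p under 0.05. *Saa1* and *Saa2* had a Pearson r of 0.946 (exact permutation p = 0.0019, adjusted 0.0446) and a Spearman rho of 0.952 (p = 0.0011, adjusted 0.0257). Without the 2 livers farthest from the median of *Saa1*, r was 0.967, and r of the deviations from the genotype means was 0.958. The part that the 50-base words common to both transcripts have in this value was not tested. *Saa2* and *Orm1*, on different chromosomes, had r = 0.886 (adjusted exact permutation p = 0.0446) and rho = 0.952 (adjusted 0.0257), and r was 0.862 without the 2 farthest livers. Within 2afl/fl alone r was 0.945 for this pair, and within the livers labelled L2aKO it was 0.661. For *Saa1* and *Saa2* the same values were 0.958 and 0.983.

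Of the other pairs, *Saa2* with *Saa3* gave r = 0.882 (adjusted exact permutation p = 0.0532), falling to 0.623 without the 2 farthest livers, and *Saa1* with *Orm1* gave 0.845. Over the 45 pairs 38 had a positive r across the 8 livers, with a median of 0.453. All 7 pairs with a negative r across the 8 livers included *Hp*, the lowest being *Hp* with *Saa3* at -0.514. The genotypes taken singly could differ in sign. *Saa4* with *Orm1* gave 0.933 within 2afl/fl and -0.909 within the livers labelled L2aKO. With *Lcn2* it gave 0.933 and -0.949, but with *Cebpd* 0.736 and 0.288. All pairs share the 8 libraries and their scaling.

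**Figure D4:**
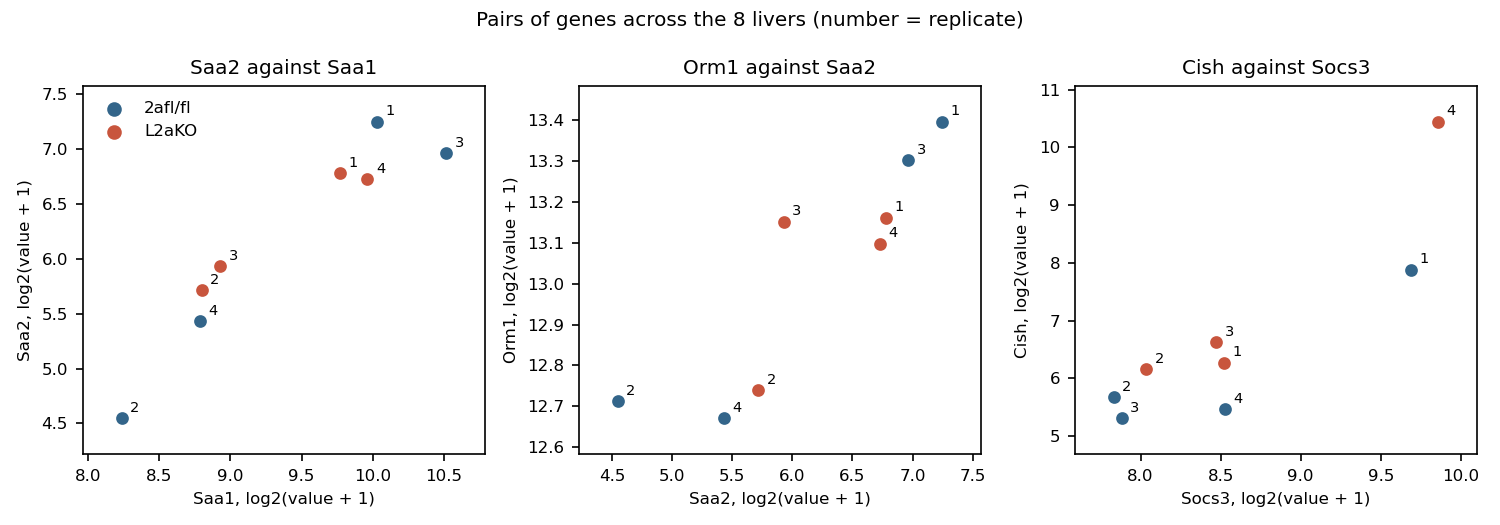
Log2(value + 1) of pairs of genes in each liver, 2afl/fl in blue and livers labelled L2aKO in red, with the replicate number beside each point. *Saa1* and *Saa2* (r = 0.946) and *Saa2* and *Orm1* (r = 0.886) rise together over the 8 livers. The second relation is looser within the livers labelled L2aKO (r = 0.661), and *Socs3* and *Cish* (r = 0.886) are set by 2 livers.

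The genes whose pattern over the 8 livers was most like the mean z score of the 10, among 14202 others with a mean of at least 10, were *Foxj2* (r = 0.947), *Acy3* (r = 0.933), *Zfp511* (r = 0.930), *Ces2h* (r = 0.927) and *Rab11fip1* (r = 0.926). These are the highest of many values and are given as a description.

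Other genes of the acute-phase response were read from lists, to set the 10 beside the rest of the pathway. Of 27 further positive acute-phase genes 0 were called, with 18 above and 9 below 0 and a median log2 fold change of 0.02. *Cd14*, the coreceptor for lipopolysaccharide, was nearest to a difference (0.50, SE 0.34), and the leucine-rich glycoprotein *Lrg1* (-0.18, SE 0.14) and the complement factor *Cfb* (-0.07, SE 0.07) lay below 0. Of 11 negative acute-phase genes, those that hepatocytes transcribe less in inflammation, 0 were called, and the median was 0.08. Albumin (*Alb*), the chief plasma protein, had 0.23 (SE 0.11), and *Serpina6*, which carries corticosteroids in blood, had 0.48 (SE 0.28).

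Signaling upstream was read from the IL-6 family. *Il6* and *Il11* were not analysed here, and the ligands *Osm* and *Lif* were at most 3.84 and 5.71 in any liver. All 5 receptor genes lay above 0, and 1 was called. *Lifr*, the receptor for leukemia inhibitory factor, was 12059, 10536, 15918 and 14532 in 2afl/fl and 16146, 16059, 14481 and 20032 in the livers labelled L2aKO (0.34, SE 0.14), overlapping through replicate 3 of the latter. *Il6st*, which encodes gp130, stood at 7813 to 8656 and at 8715 to 9467, without overlap, at a fold of only 1.09. For the oncostatin M receptor *Osmr* the log2 fold change was 0.33 (SE 0.17), and for *Il6ra*, the IL-6 receptor, 0.14 (SE 0.10). Of the 4 JAK and STAT3 genes 0 were called, and *Stat3* itself had 0.07 (SE 0.07).

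Relatives of the regulators gave no calls. Among 7 STAT3 brakes and targets other than *Socs3* the median was 0.01, and among 7 other SOCS family genes it was 0.06, with *Cish* at 1.29 (SE 1.17), *Socs2* at 0.64 (SE 0.41) and *Socs1* at 0.53 (SE 0.38). Of 5 other C/EBP genes 4 lay below 0, and *Cebpb*, which encodes the other C/EBP factor of the acute phase, had 0.25 (SE 0.14). *Cebpa*, the C/EBP factor of resting hepatocytes, was at -0.05 (SE 0.08).

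Of 23 genes of the IL-1, TNF and NF-κB pathway 0 were called, with 16 above and 7 below 0. *Nfkbiz*, which encodes the nuclear cofactor IκBζ, had an unadjusted p of 0.025 by limma but a fold of 1.20, under the limit. *Irak3* (0.46, SE 0.22) and *Tnfaip3* (0.24, SE 0.13), which both encode inhibitors of the pathway, lay above 0 without a call. Among 7 genes for receptors and partners of the secreted proteins 0 were called, and *Lrp2*, the receptor that takes up lipocalin-2 in kidney, had -0.60 (SE 0.50).

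Glucocorticoids act with IL-6 on acute-phase genes, and of 9 genes of the receptor and its targets 1 was called. *Fkbp5*, which encodes a cochaperone of the glucocorticoid receptor, was 442, 696, 770 and 644 in 2afl/fl and 886, 782, 770 and 913 in the livers labelled L2aKO (0.42, SE 0.16). The groups touch at replicate 3 of each genotype but do not overlap. *Per1* had a larger log2 fold change (1.05, SE 0.55) with overlap. Over all 11 lists 109 of 111 genes were measured and 2 were called, beside the 2.1% of all genes.

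**Figure D5:**
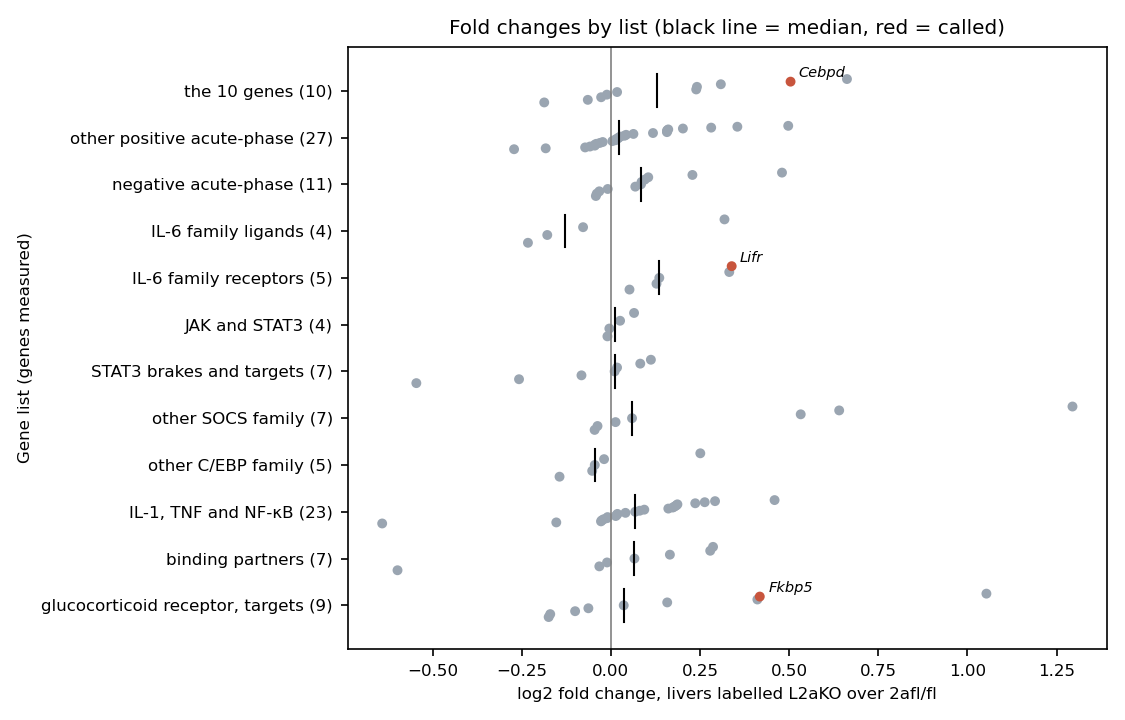
Log2 fold change (horizontal axis, livers labelled L2aKO over 2afl/fl) of each gene of the 10 and of 11 lists around them, with the number of genes measured in brackets, the median as a black line and called genes in red. *Cebpd*, *Lifr* and *Fkbp5* are the called genes, and medians of the lists lie between -0.13 and 0.14.

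The identity of the tissue was checked with 8 hepatocyte markers, of which 0 were called and which summed to 2195700 to 2535700 in 2afl/fl and 2433300 to 2612700 in the livers labelled L2aKO. The mesothelial markers, all 6 above 0, were uneven, with a sum of 341 in replicate 1 of the livers labelled L2aKO and 60.2 to 194 in the other 7 livers.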

How the data were processed

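Liver RNA of 8 mice, 4 of each genotype, was analysed from 1 table. The authors mapped reads to mm10 with STAR 2.7.8a in Partek Flow 10 and deposited a normalized signal, gene values divided by a DESeq2 size factor per library. Annotation, strand setting and treatment of reads with several matches are not given in the sources used here. Between 88.6 and 89.2% of low values lay within 0.02 of a whole multiple of the value of 1 read (0.819 to 1.14), so whole reads were not recovered and no count test was run.

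All 16650 genes passed a mean of at least 1. log2(value + 1) was fitted by limma 3.58.1 (R 4.3.3; trend, robust, no covariates). A call needed unadjusted p under 0.05 and a log2 fold change of at least 0.32 in size, the study's limits, and Benjamini-Hochberg values cover all genes. Exact tests enumerated all divisions or pairings of the livers, with ranks and adjusted p of pairs from SciPy 1.17.1. The limma fit was also run on values simulated gene by gene, without variation shared between genes. That run checked the code only and bears on no call given here. The 10 genes and the lists around them were chosen with earlier results of these data known. Genes named were the 10, *Mfsd2a*, called genes of each list with others by smallest p up to 4, 2 neighbours on each side of the *Saa* and *Orm* clusters, and the 5 genes most like the mean z score. Others named (*Orm3*, *Spidr* and some markers) were chosen after their values were seen. The labels number the livers as replicates, and the paper calls its samples biological replicates. The p-values set each difference against the spread between these livers. Alternatives changed the pseudocount, low-value limit, scaling, eBayes settings, weights, replicate block and fold limit, and left out each library.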

Additional observations from a re-analysis of the deposited data

Results flagged for a closer look

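In groups of 4 livers, a liver was singled out when its gap to the nearest other, divided by the range of the group, was above Dixon's 95% critical value. Of 22 groups tested, for the 10 genes and *Mfsd2a* in each genotype, 3 passed, and chance singles out about 1 group in 20. *Orm1* was 6844 in replicate 2 of the livers labelled L2aKO, below the others (ratio 0.830). *Socs3* was 928 in replicate 4 of the livers labelled L2aKO, above the others (ratio 0.842). *Mfsd2a* was 1569 in replicate 2 of 2afl/fl, above the others (ratio 0.832), and without that liver its log2 fold change was 1.49 and met the criterion.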

How the results depend on the processing

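*Cebpd* met the criterion in every alternative tried, with log2 fold changes from 0.44 to 0.57. The count of called genes among the 10 was 1 throughout, except that it was 2 with a replicate block, which added *Lcn2*, and 1 to 2 on leaving out each library in turn. Without 2afl/fl replicate 1, *Saa3* was added, and without L2aKO replicate 2, *Lcn2*. Same-numbered livers deviated together with correlations of -0.21 to 0.13, so the numbers were not taken to pair them. Not every liver correlated best with its own number, and the block moved the calls over all genes from 349 to 359. Without 2afl/fl replicate 3 the calls were 215 higher and 84 lower, and under quantile normalization 167 and 169, against 219 and 130. All calls fell to 229 with a mean of at least 10 and rose to 581 with no fold limit. Directions near 0 were not stable. *Saa4* became 0.011 under quantile normalization. On leaving out 1 library, log2 fold changes ran from -0.41 to 0.35 for *Saa1*, -0.26 to 0.64 for *Saa2*, -0.11 to 0.062 for *Saa4*, -0.10 to 0.14 for *Orm1*, -0.43 to 0.12 for *Orm2* and -0.14 to 0.64 for *Socs3*. They ran from 0.093 to 0.52 for *Saa3* and 0.41 to 0.89 for *Lcn2*, and these genes, *Hp* and *Cebpd* kept their sign in every alternative. With 4 livers a genotype, the 95% intervals covered folds of 0.361 to 2.67 for *Saa1*, 0.402 to 3.48 for *Saa2* and 0.454 to 3.07 for *Socs3*. The cause of these changes was not tested.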
